A study of Mus musculus with 24 samples.

Results

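The genes described here encode the ligands BAFF (Tnfsf13b) and APRIL (Tnfsf13) and their receptors, the BAFF receptor (Tnfrsf13c), TACI (Tnfrsf13b) and BCMA (Tnfrsf17). They were taken by name: every non-control probe whose gene name in the scanner output was one of these 5 symbols was used. The rule found 7 of the 39429 probes, for 4 of the 29711 genes on the array. No probe carried the name Tnfsf13. APRIL is therefore represented only by probes named for a read-through transcript that also list Tnfsf13, described further on.

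RNA came from whole blood of male C57BL/6J mice, drawn 24 h after x-rays or no dose and hybridised to one-colour Agilent arrays, which read the brightness of a labelled cRNA on each probe. The 24 arrays fall into 4 groups: Gadd45aKO-labelled mice at 7 Gy (9 arrays), Gadd45aKO-labelled mice at 0 Gy (5), Gadd45aWT mice at 7 Gy (5) and Gadd45aWT mice at 0 Gy (5). Gadd45a encodes a stress-induced growth arrest protein, and the study asked how its loss alters the radiation response of blood. The labels give no age, describe the knockout allele no further and name no animal behind an array, so p-values measure the spread between these arrays only.

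The Gadd45a probe did not separate the genotypes as their labels would. Its level at 7 Gy averaged 0.02 ± 0.34 in KO-labelled blood (SD, n = 9) and -1.19 ± 0.32 in WT blood (SD, n = 5). At 0 Gy it averaged 0.52 ± 0.16 in KO-labelled blood (n = 4) and 0.67 ± 0.24 in WT blood (n = 5). Where the probe lies relative to the deleted part is not given in the sources used here, so the genotype is called KO-labelled throughout. KO-labelled 0 Gy replicates 1 and 4 differed by less than the noise between repeat spots and were counted as 1 sample, which leaves 4 samples in that group. Their difference was 0.97 of that noise. Some other pairs were almost as alike, at 1.212 for WT 7 Gy replicates 1 and 2 and 1.235 for KO-labelled 7 Gy replicates 2 and 4. With pairs up to a looser limit of 2 averaged as well, no gene was called between genotypes at either dose. Between 25.6% and 50.9% of probes were well above background on an array, and the number of arrays limits the precision.

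BAFF and APRIL are cytokines of the tumour necrosis factor family, made mainly by myeloid and stromal cells. BAFF binds all of these receptors, whereas APRIL binds TACI and BCMA. Signalling through the BAFF receptor keeps mature B cells alive: it releases the kinase NIK from TRAF3 and so starts the noncanonical NF-kB pathway. TACI is found on activated, marginal zone and memory B cells and tunes antibody responses, and BCMA is known for the survival of plasma cells in bone marrow. In whole blood, fewer cells of a type and less RNA per cell cannot be told apart.

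The stretch of transcript that each probe reads is shown first, because probes of one receptor differed in level and in response. The positions are those of the scanner files, in the mm9 build, and each probe is 60 bases long. The BAFF receptor has 2 probes on the minus strand of chromosome 15, at chr15:82052203-82052262 (A_55_P2117614) and chr15:82054616-82054675 (A_55_P2117623), whose starts lie 2413 bases apart. TACI has 3 on the plus strand of chromosome 11, at chr11:60954823-60954882 (A_55_P2169559), chr11:60960405-60960464 (A_55_P1981972) and chr11:60962770-60962829 (A_55_P1981964). BCMA has 1 at chr16:11320045-11320104 and BAFF 1 at chr8:10035561-10035620. No genome or exon annotation of mm9 was used, so the exon or intron of each probe is not given here. The sequences are printed 5′ to 3′ in lower case, whole for the dimmer probes of each receptor and as the first 30 of 60 bases for the rest.
Tnfrsf13c A_55_P2117614: ctatgagtaagaagcttttctttgagctgg
Tnfrsf13c A_55_P2117623: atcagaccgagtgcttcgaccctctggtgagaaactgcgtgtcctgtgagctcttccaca
Tnfrsf13b A_55_P1981964: cctggagaatatagcctggctccatttgca
Tnfrsf13b A_55_P1981972: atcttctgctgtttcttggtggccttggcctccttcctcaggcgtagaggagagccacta
Tnfrsf13b A_55_P2169559: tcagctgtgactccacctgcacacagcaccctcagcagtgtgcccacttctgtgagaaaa
Tnfrsf17 A_51_P270807: tagataatgagcttcctaactggtgtgaag
Tnfsf13b A_51_P257934: cgttgaatctgatccaaaccaggaaatata
The bright probe of each receptor had a G and C content of 35% over its 60 bases, against 55% for the other probes of the same gene. Read in the forward frames, A_55_P2117614 held a stop codon in every frame, A_55_P2117623 and A_55_P1981964 left 1 frame free of stop codons, and A_55_P1981972 and A_55_P2169559 left 2 free. In the files the bright TACI probe lists an Ensembl transcript (ENSMUST00000010286), and the other TACI probes list the RefSeq transcript NM_021349. Both BAFF receptor probes list NM_028075.

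Levels are log2 processed signals minus the array's 75th percentile of the probes well above background everywhere, so 0 is a bright probe and a difference of 1 is a factor of 2. A gene is represented in the test across 15785 genes by its brightest probe, and a change was called where limma's Benjamini-Hochberg adjusted p was under 0.05. Of the 7 probes, 6 passed the filter of being well above background on at least 5 arrays, which left 3 genes tested: Tnfrsf13c, Tnfrsf13b and Tnfsf13b. After 7 Gy, 2 of the 3 were called in KO-labelled blood, where 46.9% of all genes were called, and 2 of the 3 in WT blood, where 23.6% were. Both receptors fell in both genotypes.

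**Figure D1:**
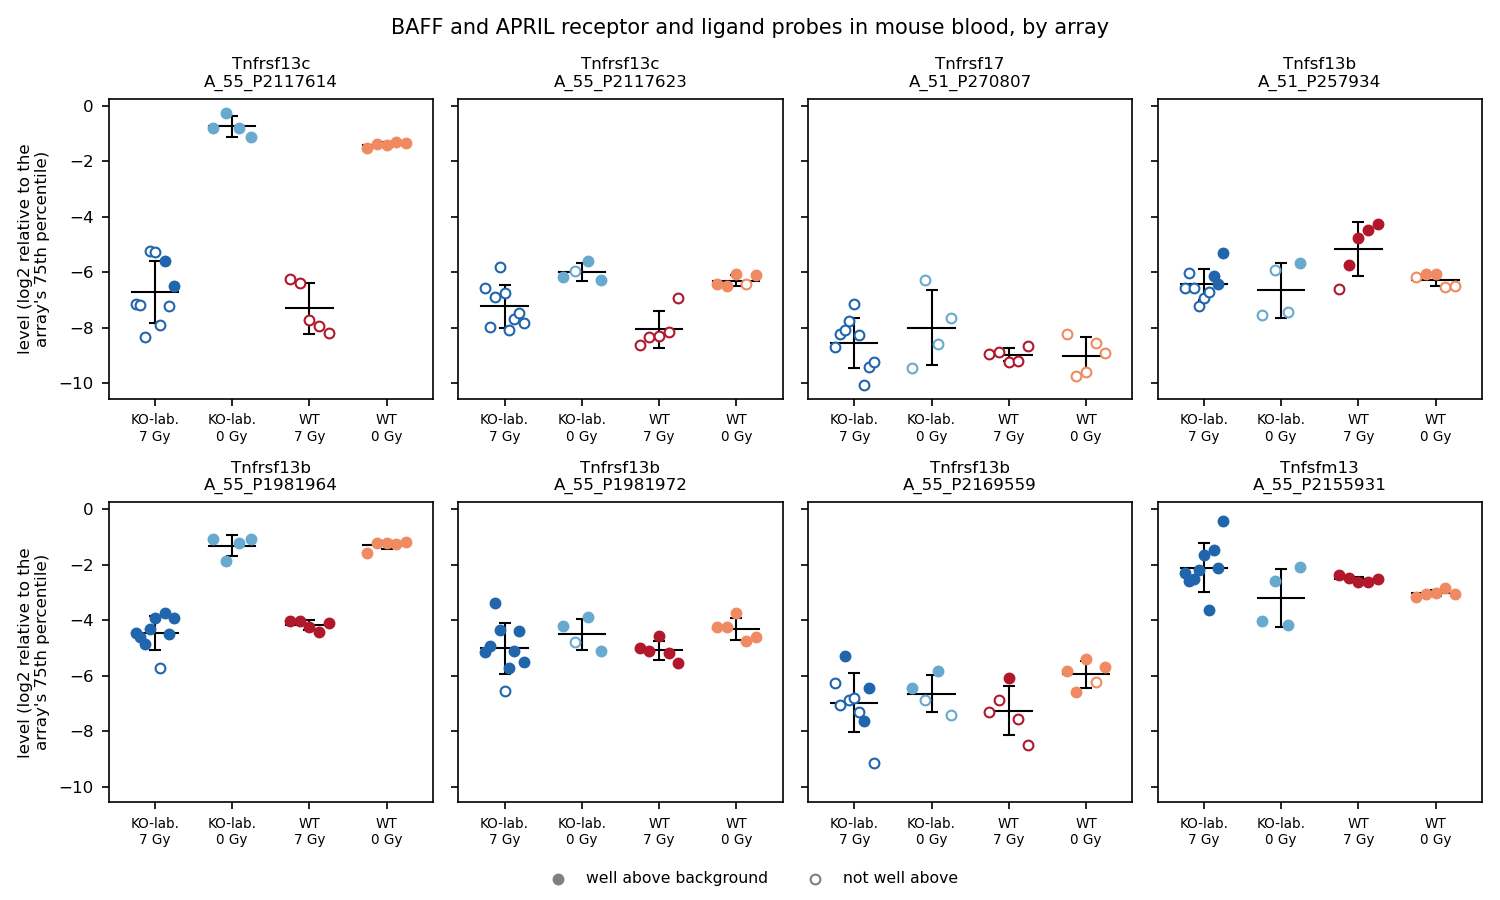
Level of each probe on each array (y axis, log2 relative to the array's 75th percentile) in the 4 groups (x axis), with the group mean and SD as a black line and bars; filled points are well above background and open points are not. For the bright BAFF receptor and TACI probes the 7 Gy groups lie wholly below the 0 Gy groups, while BCMA is open on all 24 arrays. Over all genes, dose groups did not overlap for 24.4% in KO-labelled and 28.4% in WT blood.

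Tnfrsf13c, the BAFF receptor, was the member with the larger fall. On A_55_P2117614 the 9 KO-labelled arrays at 7 Gy had levels of -8.33 to -5.24 (median -7.16), and the 4 KO-labelled samples at 0 Gy had -0.80 (replicates 1 and 4), -0.24, -0.81 and -1.12. WT arrays at 7 Gy had levels of -6.23, -6.40, -7.73, -7.93 and -8.18, against -1.52, -1.37, -1.42, -1.32 and -1.36 in WT arrays at 0 Gy. The 0 Gy levels were bright and close together, every 7 Gy array lay far below every 0 Gy array of its genotype, and groups that do not overlap were seen for 24.4% of genes in KO-labelled and 28.4% in WT blood. In KO-labelled blood the level fell by 5.97 ± 0.49 (SE, 95% interval -6.98 to -4.96, limma adjusted p = 4.16e-09). In WT blood it fell by 5.90 ± 0.51 (interval -6.96 to -4.84, adjusted p = 1.64e-08).

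The size of that fall is limited by the dim 7 Gy signal. The probe was well above background on 2 of 9 KO-labelled arrays and on 0 of 5 WT arrays at 7 Gy, but on all 0 Gy arrays. Its 7 Gy arrays alone would not have met the filter. Set against the lowest signal called well above background on each array, the WT 7 Gy level was 37.4-fold lower than at 0 Gy, where the measured means differ 59.6-fold. The lowest called signal is that of any probe, so this value is no strict bound. In KO-labelled blood, with 2 arrays measured, the means differ 62.7-fold. Within the 5 slides that held all groups, the difference was -7.52 to -4.16 in KO-labelled blood and -6.83 to -4.71 in WT blood, lower on each slide. With normexp background correction the WT fall was 1.76 and was no longer called (adjusted p = 0.116).

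The dimmer BAFF receptor probe, A_55_P2117623, gave levels of -8.09 to -5.80 (median -7.48) in KO-labelled blood at 7 Gy, against -6.15, -5.95, -5.57 and -6.29 at 0 Gy. In WT blood it gave -8.62, -8.32, -8.29, -8.15 and -6.91 at 7 Gy, against -6.43, -6.48, -6.05, -6.43 and -6.09 at 0 Gy. It was well above background on no 7 Gy array and on 4 of 5 arrays in each 0 Gy group. The filter was thus met only through the 0 Gy arrays, which favours a fall, so the test of this probe is no separate support for one. In a fit over all 19648 kept probes, of which 46.7% were called in KO-labelled and 23.2% in WT blood, it fell by 1.24 ± 0.35 in KO-labelled blood (limma adjusted p = 0.00583) and by 1.76 ± 0.37 in WT blood (0.00111). Set against the lowest signal called well above background, it was 1.32-fold and 1.43-fold lower. On single slides the difference was -2.02 to 0.14 in KO-labelled blood, higher on 1 of 5. In WT blood it was -2.24 to -0.82, lower on each slide. At 0 Gy it was near background already, so a fall as large as that of the bright probe could not have been seen on it.

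Tnfrsf13b, encoding TACI, had a smaller measured fall. On A_55_P1981964 KO-labelled arrays at 7 Gy had levels of -5.73 to -3.75 (median -4.47), against -1.07 (replicates 1 and 4), -1.87, -1.22 and -1.08 in KO-labelled samples at 0 Gy. WT arrays at 7 Gy had -4.04, -4.03, -4.24, -4.43 and -4.10, against -1.56, -1.23, -1.23, -1.26 and -1.16 in WT arrays at 0 Gy. The groups of each genotype did not overlap, which was so for 24.4% of genes in KO-labelled and 28.4% in WT blood. Unlike the BAFF receptor this probe stayed well above background on 8 of 9 KO-labelled and 5 of 5 WT arrays at 7 Gy. The level fell by 3.14 ± 0.26 in KO-labelled blood (8.80-fold, 95% interval -3.68 to -2.60, limma adjusted p = 5.07e-09). It fell by 2.88 ± 0.27 in WT blood (7.35-fold, interval -3.44 to -2.31, adjusted p = 5.28e-08). Within slides the difference was -3.62 to -2.73 in KO-labelled and -3.17 to -2.47 in WT blood. With normexp background correction the WT fall was 1.52 and was not called (adjusted p = 0.0546).

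The other TACI probes differed less with dose, and limma called neither. A_55_P1981972, well above background on 22 of 24 arrays, differed by -0.51 ± 0.39 in KO-labelled blood (limma adjusted p = 0.299) and by -0.77 ± 0.41 in WT blood (0.197). Its levels were -6.56 to -3.39 (median -5.09) in KO-labelled blood at 7 Gy, against -4.21, -4.78, -3.88 and -5.12 at 0 Gy, and -5.01, -5.10, -4.58, -5.19 and -5.54 in WT blood at 7 Gy, against -4.24, -4.24, -3.74, -4.75 and -4.60 at 0 Gy. The groups overlap in both genotypes. A_55_P2169559, well above background on 11 of 24 arrays, differed by -0.33 ± 0.49 in KO-labelled blood (0.609) and by -1.31 ± 0.52 in WT blood (0.0732). Within slides of WT blood, A_55_P1981972 differed by -0.94 to -0.44 and A_55_P2169559 by -2.82 to -0.29, lower on each slide. The exact permutation p of the WT difference was 0.0238 for each. In KO-labelled blood the ranges were -1.44 to 0.49 and -0.36 to 0.61, higher on 1 and 3 of 5 slides.

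A_55_P1981972, measured on most arrays, differed from the bright probe beyond the spread between arrays. The change of A_55_P1981964 minus that of A_55_P1981972 was -2.63 in KO-labelled blood (exact permutation test on the within-array difference, adjusted p = 0.00466 over 10 such tests) and -2.11 in WT blood (0.0113). A_55_P2169559 is too close to background, with mean levels of -6.97 in KO-labelled blood at 7 Gy and -6.64 at 0 Gy, and -7.26 in WT blood at 7 Gy and -5.95 at 0 Gy, to show a fall of that size. The called fall of TACI mRNA therefore rests on 1 of its 3 probes.

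**Figure D2:**
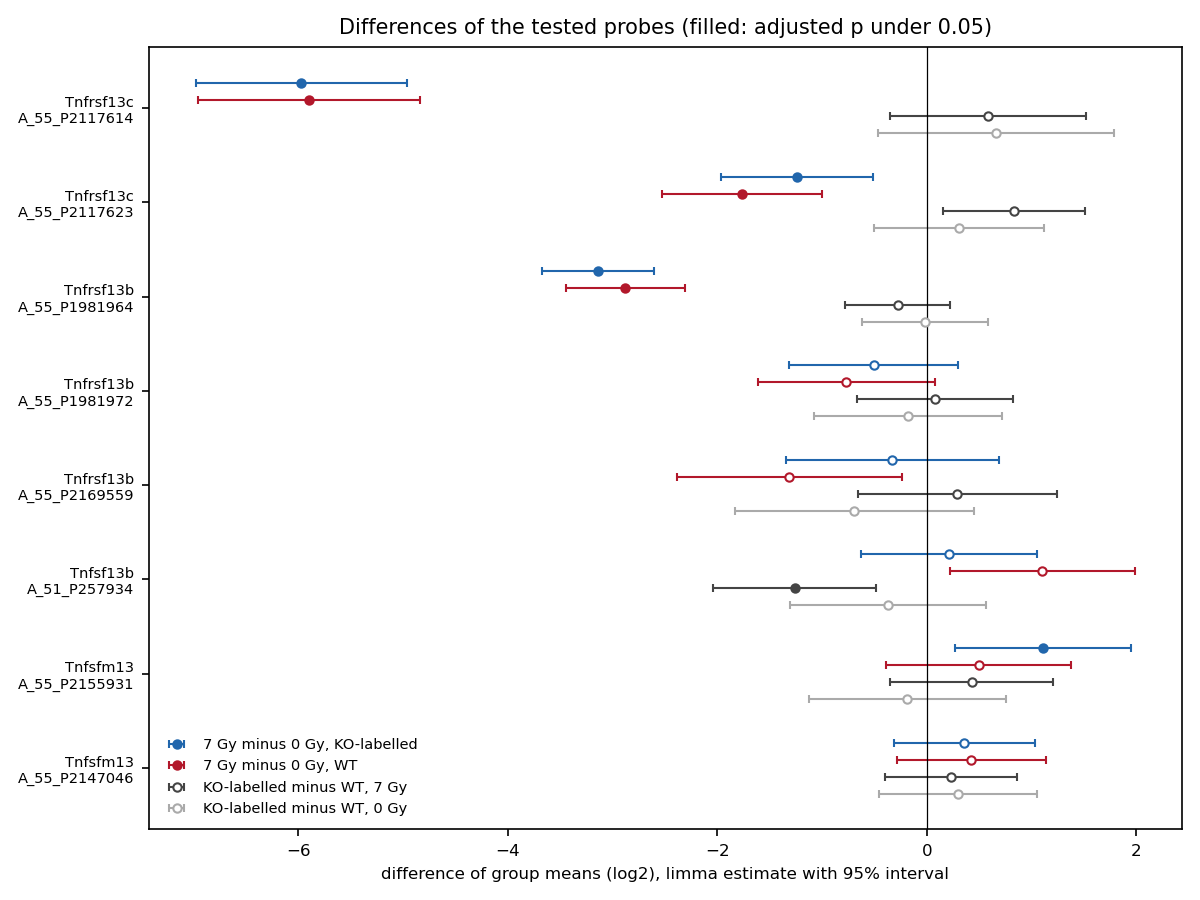
Difference of group means for each tested probe (x axis, log2, points with 95% limma intervals; filled where the adjusted p was under 0.05). The 7 Gy minus 0 Gy differences of the bright BAFF receptor and TACI probes run from -5.97 to -2.88, those of the other TACI probes from -1.31 to -0.33, and only Tnfsf13b is filled among the differences of KO-labelled minus WT blood.

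In WT blood the fall of the BAFF receptor set against the lowest called signal, 37.4-fold, exceeded the 7.35-fold fall of TACI. With normexp background correction these falls were 1.76 and 1.52 in log2, and neither was called. The size of the gap between the receptors therefore depends on the background correction. At 0 Gy no member differed between genotypes in the limma fit, where 0.291% of genes were called. The BAFF receptor was 0.66 ± 0.54 higher in KO-labelled blood than in WT blood at 0 Gy (95% interval -0.47 to 1.78, adjusted p = 0.749). Its KO-labelled and WT samples did not overlap (exact permutation p = 0.00794, the smallest this design allows), which was so for 10.6% of genes, and KO-labelled was higher on 5 of 5 slides. TACI differed by -0.02 ± 0.29 (0.989).

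The genotype did not change the receptors' fall by an amount the arrays could show. The difference of the 7 Gy responses, KO-labelled minus WT, was -0.07 ± 0.71 for the BAFF receptor (95% interval -1.54 to 1.39, limma adjusted p = 0.957) and -0.26 ± 0.38 for TACI (interval -1.04 to 0.52, 0.667), where 15.1% of genes were called. For the BAFF receptor both responses end at background signals on most 7 Gy arrays, so its estimate cannot show whether the falls differ. At 7 Gy the KO-labelled minus WT difference was 0.59 ± 0.45 for the BAFF receptor (interval -0.35 to 1.52, adjusted p = 0.386), which is set between signals at background. It was 0.96 with array quality weights (0.00995) and 1.0 in the authors' deposited table (0.0386), both called. For TACI it was -0.28 ± 0.24 (0.442).

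Markers of B cells moved with both receptors. All 16 B cell markers fell in both genotypes, by a median of 4.63 in KO-labelled and 4.26 in WT blood, against a median over all genes of -0.26 and -0.05. Of all genes, 34.6% fell in KO-labelled and 13.6% in WT blood. With normexp background correction 8 of the 16 were called lower in KO-labelled and 7 in WT blood, and with a looser limit for averaging near-identical arrays 9 in WT blood. Their summed level was -1.86 to 0.74 in KO-labelled blood at 7 Gy, against 3.65 to 4.01 at 0 Gy, and -1.54 to -0.04 in WT blood at 7 Gy, against 3.38 to 3.48 at 0 Gy. Of the markers, 13 in KO-labelled and 11 in WT blood were still well above background on some 7 Gy array. The bright TACI probe fell less than 10 of those 13 and 8 of those 11, which ranged from Fcmr, the IgM Fc receptor (-5.92 and -5.51), to Cd22, an inhibitory co-receptor of the B cell receptor (-1.81 and -0.95). The part of B cell number in the fall of the receptors was not tested.

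**Figure D3:**
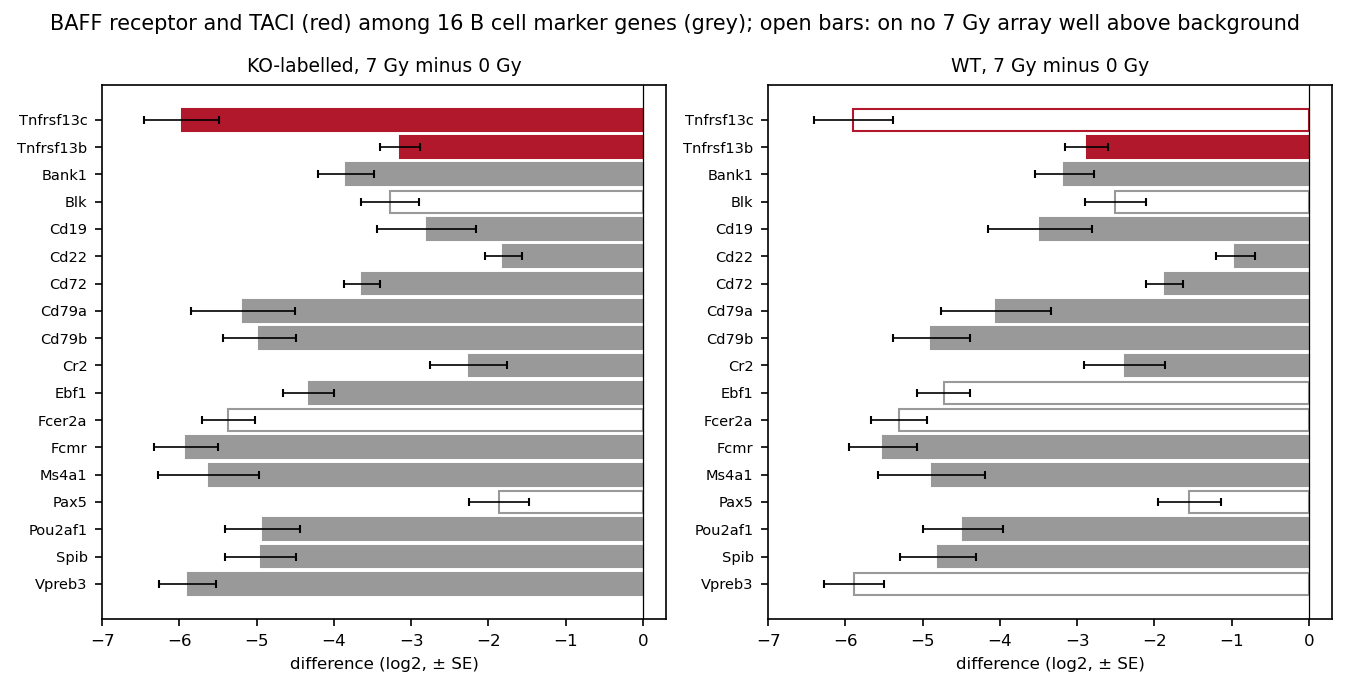
Difference of 7 Gy minus 0 Gy (x axis, log2, bars with SE) for Tnfrsf13c and Tnfrsf13b in red and 16 B cell markers in grey, for KO-labelled (left) and WT blood (right); open bars are genes well above background on no 7 Gy array, whose length is that of the measured signal. All bars point to lower levels at 7 Gy, and TACI is shorter than most grey bars.

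Genes with the most similar pattern over the 23 samples were B cell genes. For Tnfrsf13c these were Fcrla (Pearson r = 0.994), an Fc receptor-like protein, Cd79b (0.979), a signalling chain of the B cell receptor, and Fcmr (0.979). For Tnfrsf13b they were Fcmr (0.979), Ly6d (0.979) and Cd79b (0.973), among 10946 genes compared in each case. The samples share the dose difference, which sets most of these values. With each group's mean removed, Tnfrsf13c was most like Fcrla (0.928), Haus1 (0.90) and Btf3 (0.842), and Tnfrsf13b was most like H2-Eb1 (0.942), an MHC class II chain, Mrps2 (0.913) and Meaf6 (0.911). The Tnfrsf13c probe was well above background on 12 of 24 arrays, so its deviations at 7 Gy are mostly those of background signals.

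BCMA, the plasma cell receptor, was not detected. The Tnfrsf17 probe was well above background on 0 of 24 arrays, with processed signals of 1.58 to 9.59. Its levels averaged -8.54 ± 0.90 in KO-labelled blood at 7 Gy and -8.00 ± 1.36 at 0 Gy, and -8.97 ± 0.24 in WT blood at 7 Gy and -9.0 ± 0.66 at 0 Gy. Exact permutation p-values were 0.403 for the KO-labelled and 0.929 for the WT dose comparison, and signals at background show neither a difference nor its absence. Of 5 tested plasma cell markers, 4 fell in KO-labelled blood, where 34.6% of all genes fell, and 3 in WT blood, where 13.6% did, among them Mzb1, a chaperone of antibody assembly (-2.82 and -2.80), and Irf4, a transcription factor of plasma cells (-1.98 and -1.99). Xbp1 was called in neither and Sdc1 was not tested.

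Tnfsf13b, the BAFF ligand, was dim and varied between arrays. Its levels were -7.21 to -5.32 (median -6.55) in KO-labelled blood at 7 Gy, against -7.55 (replicates 1 and 4), -5.90, -7.43 and -5.67 at 0 Gy. WT arrays at 7 Gy, replicates 1 to 5, had -6.60, -5.73, -4.76, -4.48 and -4.25, against -6.18, -6.07, -6.05, -6.54 and -6.50 in WT arrays at 0 Gy. WT 7 Gy replicates 3 to 5 lie above every other array of the study, whereas replicate 1 lies below all WT 0 Gy arrays. The probe was well above background on 3 of 9 and 1 of 5 KO-labelled arrays at 7 Gy and 0 Gy, and on 4 of 5 and 2 of 5 WT arrays at 7 Gy and 0 Gy.

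No dose change of BAFF was called in the fit of all groups. The 7 Gy minus 0 Gy difference was 0.21 ± 0.40 in KO-labelled blood (limma adjusted p = 0.697) and 1.10 ± 0.43 in WT blood (0.0662, exact permutation p = 0.0714). The difference of these responses was -0.89 ± 0.59 (0.312). Within slides the WT difference was -0.42 to 2.25, higher on 4 of 5 slides. Without WT 7 Gy replicate 1 the WT difference was 1.46 and was called (adjusted p = 0.00999). With array quality weights both were called, at 0.91 in KO-labelled blood (0.004) and 1.60 in WT blood (7.22e-06).

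At 7 Gy, BAFF was called lower in KO-labelled than in WT blood, 1 of the 3 members tested, where 22.4% of all genes were called. The difference was -1.26 ± 0.38 (95% interval -2.04 to -0.48, limma adjusted p = 0.0181; exact permutation p = 0.00999), and within slides -2.73 to 0.04, higher on 1 of 5. It rests on WT 7 Gy replicates 3 to 5: without replicate 3, 4 or 5 the difference was -1.16, -1.09 or -1.03 and was not called (adjusted p = 0.0545, 0.0672 or 0.0758), and without all of them it was -0.26 (0.824). Those 3 arrays also stood apart in other cell type markers. The summed level of 12 hepatocyte markers was 2.13 to 2.99 in KO-labelled blood at 7 Gy and, in WT blood at 7 Gy, 2.89 and 2.90 on replicates 1 and 2 but 6.58, 6.65 and 6.72 on replicates 3 to 5. The summed level of 12 neutrophil markers was 3.71 to 5.33 in KO-labelled blood at 7 Gy and, in WT blood at 7 Gy, 5.69 and 5.75 on replicates 1 and 2 but 7.19, 7.18 and 7.37 on replicates 3 to 5. Of these markers, 10 of 12 hepatocyte and 8 of 12 neutrophil genes were called lower in KO-labelled blood at 7 Gy, where 17.8% of all genes were. Their part in the BAFF difference was not tested.

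**Figure D4:**
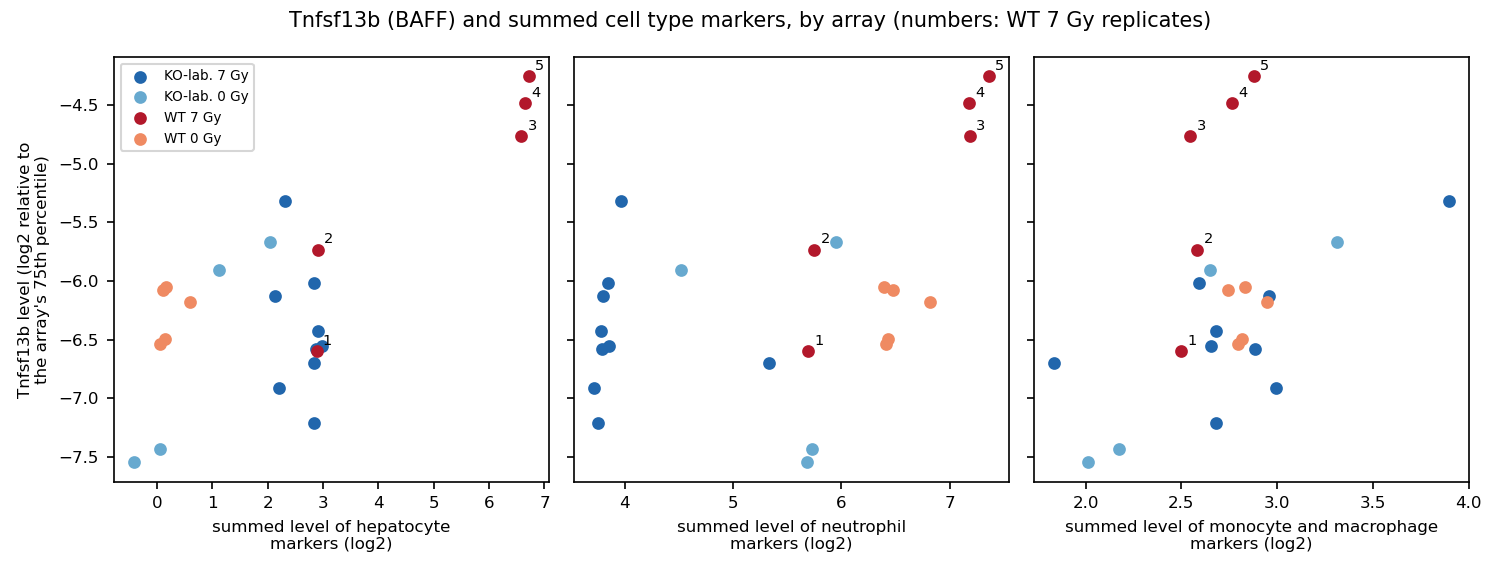
Level of Tnfsf13b on each array (y axis, log2 relative to the array's 75th percentile) against the summed level of hepatocyte, neutrophil, and monocyte and macrophage markers (x axes, log2); colours give the 4 groups and numbers the WT 7 Gy replicates. WT 7 Gy replicates 3 to 5 are high in BAFF, in hepatocyte markers (6.58 to 6.72) and in neutrophil markers (7.18 to 7.37), but not in monocyte markers.

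The summed level of 11 monocyte and macrophage markers, from cells known to make BAFF, was 1.83 to 3.90 in KO-labelled blood at 7 Gy and 2.01 to 3.31 at 0 Gy, and 2.50 to 2.88 in WT blood at 7 Gy and 2.74 to 2.95 at 0 Gy. The genes most like Tnfsf13b over the 23 samples were C3, a complement component (0.871), Slc15a3 (0.868) and Slc2a6 (0.866), and with group means removed Gpr137b-ps (0.885), Lifr (0.883) and Pex11a (0.876). The Tnfsf13b probe was well above background on 10 of 24 arrays, so these values partly follow background signals.

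For APRIL, the probes named Tnfsfm13 list accessions of Tnfsf13 in the files. Tnfsfm13 is the read-through transcript of the neighbouring genes Tnfsf12, which encodes the cytokine TWEAK, and Tnfsf13. A signal on these probes can be given neither to APRIL alone nor to the read-through transcript alone. The probe A_55_P2155931, at chr11:69496733-69496792 on the minus strand of mm9, was well above background on all 24 arrays. Its levels were -3.61 to -0.43 (median -2.20) in KO-labelled blood at 7 Gy, against -4.01, -2.58, -4.16 and -2.07 at 0 Gy. WT arrays at 7 Gy had -2.38, -2.48, -2.60, -2.63 and -2.52, against -3.15, -3.04, -3.02, -2.83 and -3.05 at 0 Gy. KO-labelled groups overlap widely, while the WT groups are tight and do not overlap, which was so for 28.4% of genes in WT blood.

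The signal of A_55_P2155931 was higher at 7 Gy by 1.11 ± 0.41 in KO-labelled blood (limma adjusted p = 0.0287), where the exact permutation p was 0.0741. In WT blood the difference was 0.49 ± 0.43 (0.473), with an exact permutation p of 0.00794, the smallest possible. The limma SE pools the spread of all groups, and that of the WT arrays is smaller. With only the WT groups in the fit the WT difference was called (adjusted p = 0.00466), and with only the KO-labelled groups in the fit the KO-labelled one was not (0.0992). Without KO-labelled 0 Gy replicate 3 the KO-labelled difference was 0.79 and was not called (0.141). Within slides the signal of this probe was higher at 7 Gy on 5 of 5 in each genotype. The second probe, A_55_P2147046, differed by 0.36 in KO-labelled (0.387) and 0.42 in WT blood (0.439), and the bright Tnfsf12 probe by 1.22 ± 0.52 (0.0593) and 0.05 ± 0.55 (0.973). A dimmer Tnfsf12 probe, A_55_P1953030, was called higher in KO-labelled blood (0.95 ± 0.30, 0.0132), where 46.7% of kept probes were called. Its WT difference was 0.26 ± 0.32 (0.651). Both Tnfsf12 probes were higher at 7 Gy on 5 of 5 slides in KO-labelled and on 3 of 5 in WT blood.

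Signalling genes below the receptors were read from 6 lists of the pathway, 38 of whose 45 genes were tested. In KO-labelled blood 1 of the 38 rose and 21 fell at 7 Gy (median difference -0.69), against 12.4% of all genes rising and 34.6% falling. In WT blood 4 rose and 9 fell (median -0.24), against 10% and 13.6%. At 0 Gy none was called between genotypes by limma (median 0.22). At 7 Gy 1 was higher and 9 were lower in KO-labelled than in WT blood (median -0.41, all genes -0.12), where 4.58% and 17.8% of genes were. Without WT 7 Gy replicates 3 to 5, the arrays that stood apart in hepatocyte and neutrophil markers, 3 of the 38 were lower. The response itself differed for 7 of the 38, where it did for 15.1% of all genes, and for 3 without those arrays.

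The noncanonical NF-kB arm, the route used by the BAFF receptor, fell for 7 of 8 genes in KO-labelled and for 3 of 8 in WT blood. Of all genes, 34.6% and 13.6% fell. Map3k14, which encodes NIK, fell by 1.85 ± 0.15 in KO-labelled blood (limma adjusted p = 5.19e-09) and by 0.61 ± 0.16 in WT blood (0.00773), and the difference of these responses was -1.24 ± 0.22 (0.00199). Its WT fall was not called with normexp correction (difference 0.0017, 0.998), looser averaging of near-identical arrays (-0.67, 0.35) or the authors' value table (-0.57, 0.0839). The difference of responses was not called under those settings either (-0.54, -1.16 and -1.07). With normexp correction the KO-labelled fall was 0.54 and was not called (0.509). Traf3, the adaptor that holds NIK in check, fell by 1.50 ± 0.22 (9.74e-06) and by 0.80 ± 0.23 (0.014), the WT fall not being called without WT 7 Gy replicates 3 to 5 (0.149). Nfkb2, the precursor that NIK signalling has cleaved, fell by 1.20 ± 0.19 (2.69e-05) and by 0.88 ± 0.20 (0.00263). Birc3, a ubiquitin ligase that acts with Traf3, fell by 1.98 ± 0.42 in KO-labelled blood (0.00053), and its WT difference was -0.48 ± 0.44 (0.514). Birc2, its paralog, was called in neither genotype.

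Of the other receptor adaptors, Traf5 fell by 2.52 ± 0.20 in KO-labelled blood (limma adjusted p = 3.54e-09) and by 1.70 ± 0.21 in WT blood (2.55e-06). Traf1 and Traf6 were called in neither, and Camlg, which encodes a partner of TACI, was not tested. In the canonical NF-kB list 5 of 6 genes fell in KO-labelled and 1 of 6 in WT blood, against 34.6% and 13.6% of all genes. Rel, a subunit important in lymphocytes, fell by 2.89 ± 0.23 (4.81e-09) and by 1.51 ± 0.26 (0.000148), and the responses differed by -1.38 ± 0.34 (0.0121), or by -0.95 (0.113) without WT 7 Gy replicates 3 to 5. Ikbkg, the scaffold of the IkB kinase, fell by 1.51 ± 0.31 (0.000415) and Nfkb1 by 1.29 ± 0.32 (0.00201) in KO-labelled blood, against -0.50 ± 0.33 (0.318) and -0.36 ± 0.34 (0.517) in WT blood.

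Among 5 survival effectors, 3 fell in KO-labelled blood, and 1 rose and 2 fell in WT blood. Of all genes, 34.6% fell in KO-labelled blood, and 10% rose and 13.6% fell in WT blood. Bcl2l1, which encodes the anti-apoptotic Bcl-xL and is also abundant in red cell precursors, fell by 0.96 ± 0.20 in KO-labelled blood (limma adjusted p = 0.000354) and by 2.06 ± 0.21 in WT blood (1.2e-07), and the responses differed by 1.09 ± 0.28 (0.014). That difference was 0.46 with quantile normalization (0.204) and 0.88 without WT 7 Gy replicates 3 to 5 (0.134), and was lost under 7 alternatives in all. Pim2, a survival kinase, fell by 1.50 ± 0.27 (0.000117) and by 1.19 ± 0.29 (0.00386), or by 0.65 (0.311) in WT blood without WT 7 Gy replicates 3 to 5. Mcl1, another anti-apoptotic protein, fell by 1.14 ± 0.23 in KO-labelled blood (0.000355), and its WT difference was 0.03 ± 0.24 (0.954). Bcl2 rose by 1.65 ± 0.48 in WT blood (0.0147), or 1.0 (0.0222) without WT 0 Gy replicate 1, and its KO-labelled difference was -0.05 ± 0.46 (0.942). The WT rise was not called with only the WT groups in the fit (0.0607) or with looser averaging of near-identical arrays (0.118).

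Between genotypes at 7 Gy, Bcl2l1 was higher in KO-labelled than in WT blood by 1.30 ± 0.18 (limma adjusted p = 3.35e-05). Map3k14 was lower by 0.96 (difference -0.96 ± 0.14, 5.66e-05), Mcl1 differed by -0.98 ± 0.21 (0.00223) and Rel by -0.84 ± 0.23 (0.0108). The Map3k14 difference was not called with looser averaging of near-identical arrays (0.157) or normexp correction (0.934). Furin, the protease that releases BAFF and APRIL, differed by -0.73 ± 0.20 (0.0091), but by -0.08 (0.879) without WT 7 Gy replicates 3 to 5. Without those arrays Mcl1 differed by -0.55 (0.287) and Rel by -0.41 (0.412), and neither was called. Rel was also lost without WT 7 Gy replicate 5 alone (0.0741), and Traf2 without replicate 1 (0.0752) or 2 (0.0985).

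The other lymphoid ligands and receptors of the tumour necrosis factor family were mixed, with 1 rising and 5 falling in KO-labelled and 3 rising and 2 falling in WT blood of 14 tested. Of all genes, 12.4% rose and 34.6% fell in KO-labelled blood, and 10% rose and 13.6% fell in WT blood. The falling counts are near those shares, so they show nothing particular to this family. Cd40, the B cell receptor for T cell help, fell by 2.66 ± 0.38 in KO-labelled blood (limma adjusted p = 7.78e-06) and by 2.71 ± 0.40 in WT blood (2.31e-05), and was well above background on 3 of 9 and 1 of 5 arrays at 7 Gy. Ltb, a lymphotoxin chain, fell by 1.33 ± 0.22 (3.65e-05) and by 0.73 ± 0.23 (0.0241). Tnfrsf9, a costimulatory receptor of T cells, fell by 1.48 ± 0.40 in KO-labelled blood (0.00381). Tnfrsf18, which encodes GITR, rose by 0.47 ± 0.17 (0.0312) and by 1.21 ± 0.18 (3.14e-05), and Tnfsf8, which encodes CD30 ligand, rose by 1.15 ± 0.37 in WT blood (0.0254). Leaving out a single array ended some of these calls. Tnfrsf18 in KO-labelled blood was lost without KO-labelled 0 Gy replicate 2 (0.125) or 5 (0.067). Tnfsf8 in WT blood was lost without WT 7 Gy replicate 1 (0.0761) or 2 (0.0672) or WT 0 Gy replicate 4 (0.0625) or 5 (0.0518). Ltb in WT blood was lost without WT 7 Gy replicate 3 (0.051) or 4 (0.0606) or WT 0 Gy replicate 1 (0.0803) or 5 (0.0641). At 7 Gy Tnfsf14, which encodes LIGHT, differed by -1.27 ± 0.27 between KO-labelled and WT blood (0.00182), and by -0.71 (0.271) without WT 7 Gy replicates 3 to 5. Its called rise in WT blood was lost without WT 7 Gy replicate 3 (0.0691), 4 (0.0705) or 5 (0.0744) or WT 0 Gy replicate 2 (0.0561) or 4 (0.0513). Without WT 7 Gy replicates 3 to 5 together that rise was 0.41 (0.644).

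**Figure D5:**
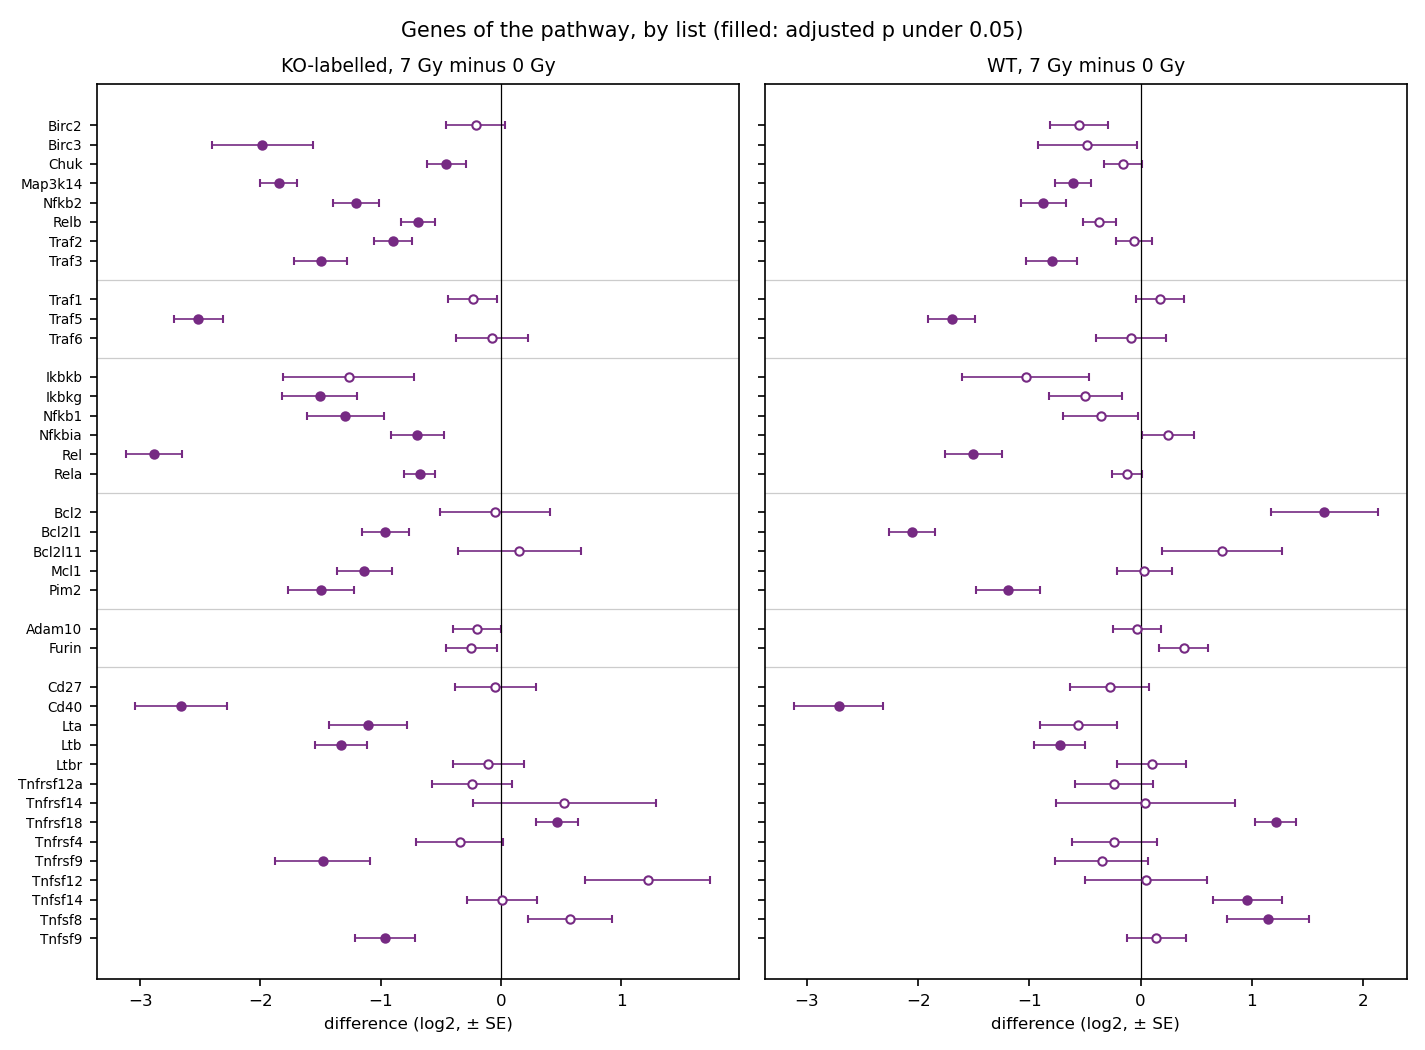
Difference of 7 Gy minus 0 Gy (x axis, log2, points with SE; filled where limma's adjusted p was under 0.05) for the tested genes of the 6 pathway lists, separated by grey lines, in KO-labelled (left) and WT blood (right). More filled points lie left of 0 in KO-labelled (21) than in WT blood (9), and the right-hand filled points in WT blood are Bcl2, Tnfrsf18, Tnfsf14 and Tnfsf8.

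Several of these signalling genes are used by T cells and myeloid cells as well, and some markers of those cells were called too. Of 12 T cell markers, 7 fell in KO-labelled blood and 2 fell and 1 rose in WT blood. Of 12 neutrophil markers, 6 fell in KO-labelled blood and 1 fell and 1 rose in WT blood. Of all genes, 34.6% fell in KO-labelled blood, and 13.6% fell and 10% rose in WT blood. The WT marker counts are near those shares. Their part in the changes of the pathway genes was not tested.

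The pathway counts depend on the background correction, since many of these genes are dim. With normexp correction 4 of the 38 were lower at 7 Gy in KO-labelled and 1 in WT blood. In KO-labelled blood Birc3 then differed by 0.11, Ikbkg by 0.46, Nfkb1 by 0.19 and Pim2 by 0.39. In WT blood Nfkb2 differed by 0.05, Cd40 by 0.11 and Pim2 by 0.74, and none of these was called. That correction adds an offset of 50 to each signal, which narrows differences between dim signals. Its median difference over all genes was 0.46 in KO-labelled and 0.60 in WT blood, against -0.26 and -0.05 in the main fit. Of the values listed, only that of Pim2 in WT blood was above this median. Called under every alternative that measured them were the falls of Bcl2l1 in both genotypes and of Mcl1 and Ltb in KO-labelled blood.

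Promoter windows of RefSeq (GRCm38.p6, 250 bases before to 50 after each start) were searched on both strands for motifs of factors known in B cells and in the interferon response. An interferon response element, searched as GAAA, any 2 bases and GAAA, occurs in 1131 of 32851 windows (3.443%). It was found in 1 of the 2 windows of Tnfsf13b, from 16 bases before the start, and in that of Tnfrsf17, on the minus strand. BAFF is known to be induced by interferons, and its match is shown in capitals within 30 bases of chr8:10006607-10006636, plus strand.
Tnfsf13b: tacaaaaactGAAAGTGAAAtgcggaaggc
The windows of Tnfrsf13c and Tnfrsf13b, which fell together, held no GGG, any 2 bases and TTTCC (an NF-kB motif, in 1.629% of windows), no ATGCAAAT (the octamer, 1.735%), no TCCC, any 2 bases and GGGA (an EBF1 motif, 0.904%) and no GAGGAA (a PU.1 motif, 28.276%). A match is a description of the sequence only, and a missing one says only that these letters are not in the window.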

How the data were processed

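The files are Agilent scanner output, 1 array each, made with Agilent Feature Extraction 12.0.2 per the submitters' processing notes. Per the file headers, the deposited intensity of each spot is a background-subtracted processed signal, with no scaling between arrays. The authors also deposited a table of log2 values with 12900 entries; set against the scanner values its columns are shifted by 0 to 1.54, their medians are 5.75 to 7.18, and how that shift was chosen is not given in the sources used here. It served as an alternative.

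Control spots were left out, spots of a probe averaged, and log2 signals centred on each array's 75th percentile over those 7803 probes that no array lacked, since most arrays detected a minority of probes. Probes well above background on at least 5 of 24 arrays were kept (19648 of 39429), the one with the highest mean stood for its gene (15785 genes), and probes were named through accessions and symbols of RefSeq GRCm38.p6 where these matched (32123 of 39429) and otherwise by the files. limma 3.58.1 in R 4.3.3 fitted the 4 groups together (lmFit, eBayes, 23 samples), with Benjamini-Hochberg adjustment over all genes. The script was tested on simulated data. Exact permutation tests over samples are two-sided. A fold set against the lowest called signal compares the bright group's mean with, on each dim array, the higher of the lowest signal well above background and the probe's own. It is approximate, since signals of like size can be called on one probe and not on another. On KO-labelled 7 Gy replicate 6, 35.63 was called on A_55_P2147046 and 36.74 was not on A_55_P1981964.

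Replicates 1 to 5 of each group share slides 1 to 5, and KO-labelled 7 Gy replicates 6 to 9 are on slide 6. Over the 30 pairs of samples with the same number, the correlation of deviations from group means was -0.232 to 0.711, with a median of 0.196, and over 0.1 in 18. Over 180 pairs with different numbers the median was -0.0271 and 50 were over 0.1. Not every pair of the same number was over 0.1, so the main fit has no block, although such pairs were more alike by median. Fits with the slide or the number as a block were alternatives. In the main fit the response differed for 504 genes upwards and 1874 downwards. With the slide as a block these were 1740 and 3386. The members and lists were chosen with earlier results of these data known. The text names all 5 members with every probe, Gadd45a, up to 3 called genes of each pathway list per comparison with the largest change, and the 3 genes most like each member, with others named to complete a list. Alternatives were other scalings, background correction and filters, blocks, array weights, the value table and leaving out arrays.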

Additional observations from a re-analysis of the deposited data

Results flagged for a closer look

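Of 28 groups of member probe values checked, 2 held a sample whose gap to its nearest neighbour was large for the group's range, a rule that by chance picks out about 1 group in 20. On the dim BAFF receptor probe, A_55_P2117623, WT 7 Gy replicate 5 had a level of -6.91 and its nearest neighbour -8.15, and none of these arrays was well above background. On the bright TACI probe, A_55_P1981964, WT 0 Gy replicate 1 had -1.56 and its nearest neighbour -1.26. That array has one of the wider spreads between repeat spots, and its removal left the TACI change called.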

How the results depend on the processing

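The fall of the BAFF receptor and of TACI kept its direction under every alternative that could be run. In KO-labelled blood it stayed called, at -6.15 to -2.75 and -3.37 to -1.52. With normexp background correction the number of members called in WT blood was 0, not 2. Of members called between genotypes at 0 Gy, array quality weights gave 1. At 7 Gy they gave 2, while a looser limit for averaging near-identical arrays, normexp correction and leaving out WT 7 Gy replicates 3 to 5 each gave 0; leaving out single replicates gave 0 to 1. The BAFF difference at 7 Gy was -0.87 (0.12) in the authors' value table, -1.03 (0.573) with looser averaging and -0.42 (0.934) with normexp, and the cause was not tested. BAFF was called higher at 7 Gy in WT blood with quality weights (1.60), median scaling (1.16) and the value table (1.20). The replicate block, by a number that also marks a slide, left 2, 2, 0 and 1 members called in the KO-labelled and WT dose comparisons and between genotypes at 0 and 7 Gy, and gave BAFF a difference of -1.49 (0.0121) at 7 Gy. Over all genes it raised the calls to 3775 higher and 6239 lower in KO-labelled blood. Requiring a probe to be well above background on all arrays left no member. Over all pathway genes, leaving out single replicates gave 19 to 22 lower in KO-labelled and 8 to 10 in WT blood, and the other settings gave 4 to 24 and 1 to 16, lowest with normexp. Between genotypes at 7 Gy the 9 lower pathway genes became 0 with normexp and with looser averaging, 3 in the value table and 15 with slide as a block. The 7 genes whose response differed became 0 under those first 3 settings and, with slide as a block, 2 higher and 16 lower. Over all genes, 5454 were lower in KO-labelled and 2141 in WT blood, against 576 and 374 with normexp and 6748 and 4744 with quality weights. Median scaling moved the KO-labelled split to 2736 higher and 4176 lower, against 1951 and 5454, and quantile normalization to 2611 and 4035. Dim 7 Gy signals limit the size of the BAFF receptor's fall and leave BCMA unmeasured.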
